A study of Homo sapiens with 32 samples.

Results

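The KEAP1-NRF2 pathway was followed in MDA-MB-468 cells, an established line of triple-negative breast cancer, through 9 genes. NFE2L2 encodes the transcription factor NRF2, KEAP1 encodes its inhibitor, and NQO1, HMOX1, GCLM, GCLC, TXNRD1, SRXN1 and ME1 are well-known NRF2 targets. The genes were listed for their place in the pathway, with no threshold on a measured value but with earlier results of these data known, and all 9 were found among the 48804 genes of the count table and passed the filter on low counts in each fit. Cells received PBS (control), 0.5 μM salinomycin (Sal, a polyether antibiotic that carries cations across membranes), 15 μM dasatinib (Das, an inhibitor of Src family kinases) or the 2 drugs together at the same doses (S + D). RNA was sequenced after 24 and 72 h, with 4 libraries from biological replicates for each of the 8 conditions and 32 libraries in all. In every condition 3 libraries carry a replicate number, 1 to 3, in the sample labels, and 1 has a column name that no label holds. The latter is called the unnumbered library.

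NRF2 is made all the time and, in unstressed cells, is bound by KEAP1, which hands it to a ubiquitin ligase for destruction. Electrophiles and oxidants modify cysteines of KEAP1, NRF2 then escapes, pairs with small MAF proteins and binds antioxidant response elements in front of genes for glutathione synthesis, quinone reduction, thioredoxin reduction and NADPH supply. NRF2 is thus controlled mainly at the level of its protein, which RNA-seq does not measure. Both drugs have been studied for the production of reactive oxygen species, and the comparisons below ask how the RNA of the pathway moved with each drug, with the pair and with time.

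The core of the antioxidant response element, TGACNNNGC, was searched on both strands in the promoter windows of RefSeq (GRCh38.p14), which run from 250 bases before to 50 bases after a gene's start. Of the 9 genes, 8 had a window, and 4 of these (KEAP1, GCLM, TXNRD1 and ME1) held the letters in at least 1 window. Of all 35116 windows of this length, 13.3% held them. This share counts single windows, while NFE2L2, KEAP1 and TXNRD1 had 2 windows each. A match describes letters only. Sequence outside the windows was not searched, so a gene without a match may hold the element elsewhere. HMOX1 was not among the promoter sequences. These windows held 8 matches, and the stretches with the 6 that lie wholly before a start are shown because these 4 genes moved in different ways in the results below. The other 2, in ME1 and at the first start of TXNRD1, lie past or across the start. The stretches end before the gene's start, read 5′ to 3′ along the gene, and have each match in capitals, with GC first where it lies on the other strand.
GCLM, chr1:93909431-93909494, minus strand, 34 bases before the start: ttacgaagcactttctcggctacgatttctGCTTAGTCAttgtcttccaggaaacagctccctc
ME1, chr6:83431150-83431218, minus strand, 137 bases before the start: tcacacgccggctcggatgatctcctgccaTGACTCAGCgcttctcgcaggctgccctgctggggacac
TXNRD1, first start, chr12:104215650-104215718, plus strand, 99 bases before the start: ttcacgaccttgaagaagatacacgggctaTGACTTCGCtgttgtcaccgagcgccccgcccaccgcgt
TXNRD1, second start, chr12:104286900-104286968, plus strand, 102 bases before the start: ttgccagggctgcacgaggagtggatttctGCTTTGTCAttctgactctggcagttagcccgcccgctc
KEAP1, chr19:10502772-10502832, minus strand, 54 and 31 bases before the start: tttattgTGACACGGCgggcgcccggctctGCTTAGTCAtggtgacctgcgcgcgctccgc
In ME1 the match overlapped TGANTCA, the element of AP-1 factors, as TGACTCA, and the other 5 shown did not overlap it. TGANTCA itself stood in 7.71% of all windows. GCLM and the second match of KEAP1 carried the same 9 letters.

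Depth was between 25692561 and 42769687 counts per library. The line's markers were present, with EGFR between 2750 and 5930 CPM (counts scaled to library size with TMM factors), EPCAM between 208 and 388 and CDH1 between 196 and 360. Keratins ranged more widely, with KRT5 between 27.8 and 914 CPM (500 to 914 in controls) and KRT8 between 204 and 1440 (908 to 1440). KRT18 stood between 352 and 930 CPM (714 to 930 in controls) and KRT17 between 7.72 and 232 (25 to 72.2). These ranges were not tested. PGR stood between 0 and 0.0891 CPM, ESR1 between 3.66 and 12 CPM and ERBB2 between 56.5 and 195 CPM. Of 7 markers of other cell types, PTPRC, CD3E, CD68, COL1A2, COL3A1 and ACTA2 did not exceed 0.529 CPM, and COL1A1 stood between 18 and 118 CPM. Their summed level was between 18.5 and 37.2 CPM in the control at 24 h and between 67.3 and 118 CPM in S + D at 72 h, nearly all of it COL1A1, and its part in the results was not tested.

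The unnumbered libraries stood apart from the numbered ones, and this touched most of the 9 genes. In a test added after seeing the data, with a term for these libraries beside the groups, 5 of 9 genes differed in level at an adjusted p under 0.01 at 24 h, 4 higher and 1 lower, against 25.4% of all genes higher and 25.0% lower. At 72 h, 4 were higher and 1 lower, against 13.6% and 11.4% of all genes. SRXN1 was higher in the unnumbered libraries by a log2 difference of 1.70 (SE 0.26) at 72 h, TXNRD1 by 0.56 (SE 0.08), KEAP1 by 0.45 (SE 0.09) and NQO1 by 0.42 (SE 0.09), while NFE2L2 was lower by -0.30 (SE 0.07). At 24 h, HMOX1 was higher by 0.44 (SE 0.12). GCLM, GCLC and ME1 did not pass the test at either time. What sets these libraries apart is not given in the sources used here. Each result is therefore given from all 4 libraries, with the value from the 3 numbered ones beside it where the call changes and, against control, where the direction does.

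Both subunits of the first enzyme of glutathione synthesis rose with Sal and S + D at 72 h. GCLM, the modifier subunit of the enzyme that makes gamma-glutamylcysteine, rose 2.65-fold with S + D and 1.74-fold with Sal at 72 h, and GCLC, the catalytic subunit, rose 1.47-fold and 1.45-fold. In bulk RNA, a change within cells and a change in the mix of surviving cells cannot be told apart. NQO1, a quinone reductase, stood at 0.470 and 0.491 times its control with Sal and S + D at 72 h, and it had risen with Das at 24 h. HMOX1, the enzyme that degrades haem, fell with Sal alone at 72 h and was 3.00-fold higher with S + D than with Sal. ME1, a cytosolic enzyme that makes NADPH from malate, rose early, with Das and with S + D. GSS, the second enzyme of glutathione synthesis and no member, fell at 72 h with -0.77, -0.83 and -0.94 under Sal, Das and S + D (adjusted p = 3.25e-05, 9.51e-05 and 3.52e-06). In the same list of glutathione genes SLC7A11 rose by 1.30, 1.15 and 1.30 (adjusted p = 6.5e-06, 0.000149 and 6.11e-06). Of the 19 tested in that list, 6 rose and 8 fell under Sal, 5 and 3 under Das, and 8 and 8 under S + D. GSS and SLC7A11 are named after their values were seen. TXNRD1, SRXN1 and NFE2L2 did not pass the test in any comparison with control, and KEAP1 passed it only with S + D at 24 h.

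**Figure D1:**
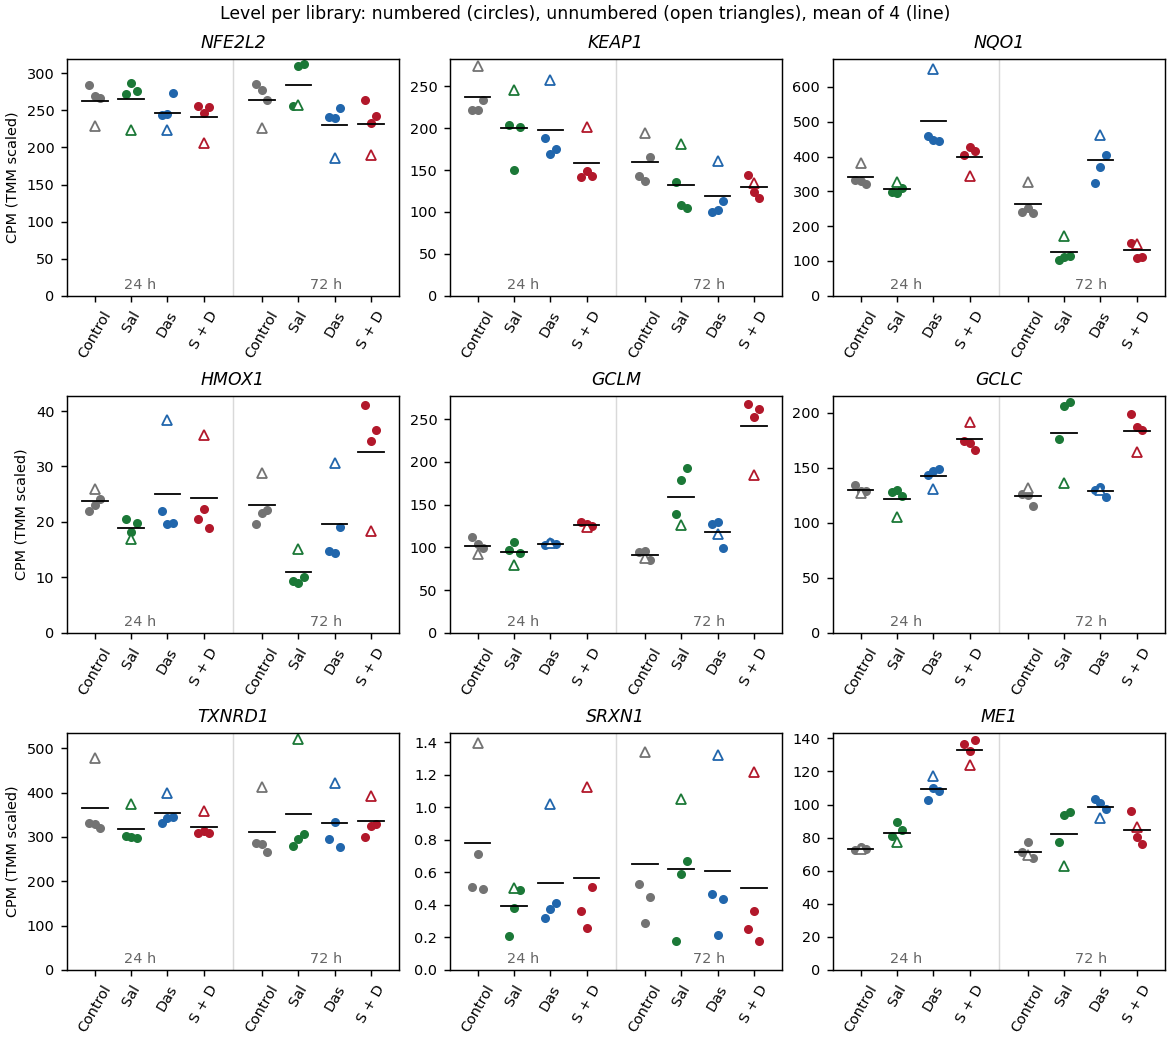
Level of each of the 9 genes in every library (y axis, CPM with TMM scaling, from 0) by treatment and time (x axis), with the numbered libraries as circles, the unnumbered library as an open triangle and the mean of the 4 as a line. GCLM climbs with S + D at 72 h to between 185 and 268 CPM, and the triangles of TXNRD1 and SRXN1 lie above the circles in every condition.

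The regulators came first in the comparison. NFE2L2 (ENSG00000116044, GRCh37 chromosome 2, 178083395 to 178257484, minus strand) stood at 284, 270, 267 and 229 CPM in the control at 24 h, in the order of libraries 1 to 3 and the unnumbered one, an order kept throughout. At 72 h it stood at 286, 278, 264 and 226 CPM in the control, and at 264, 233, 242 and 189.7 CPM with S + D. The ranges overlapped, and the unnumbered library was the lowest of the 4 in 7 of the 8 conditions, all but Sal at 72 h. The log2 fold change against control lay between -0.21 (SE 0.13) with Das at 72 h and 0.10 (SE 0.13) with Sal at 72 h, with adjusted p = 0.219 and adjusted p = 0.517. With Sal at 24 h it was -0.01, and 0.019 in the numbered libraries (adjusted p = 0.821). In the annotation used here, 38.4% of its exon bases are shared with other genes (AGPS, HNRNPA3 and 2 non-coding genes), so its counts are uncertain where strand or shared reads were not resolved.

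KEAP1 (ENSG00000079999, chromosome 19, 10596801 to 10614234, minus strand) stood at 221, 222, 234 and 274 CPM in the control at 24 h and at 142, 149, 143 and 202 CPM with S + D. The 4 libraries with S + D lay below the 4 controls, and the unnumbered library was the highest in each group. The log2 fold change was -0.56 (SE 0.16, adjusted p = 0.00826), which is 0.677 times the control. Of the 8 fits that left out a library, 7 lost the call (adjusted p up to 0.0289, without S + D library 1), and only the fit without the unnumbered S + D library kept it (adjusted p = 0.00194). With the numbered libraries alone, the log2 fold change was -0.65 (adjusted p = 1.12e-06). KEAP1 stood at 200.4 ± 39.0 CPM (SD, n = 4) with Sal and 197 ± 41.1 CPM with Das at 24 h, between control and S + D, and neither passed the test in all 4 libraries (adjusted p = 0.291 and adjusted p = 0.262). In the numbered libraries alone both did, with log2 fold changes of -0.29 (adjusted p = 0.00808) and -0.33 (adjusted p = 0.00187). At 72 h, the levels were 159.9 ± 26.3 CPM in the control, 133 ± 35.3 under Sal, 119 ± 28.2 under Das and 129.8 ± 12.2 under S + D, and none of the 3 treatments passed the test (adjusted p from 0.0709 to 0.184). From the numbered libraries, Das did (log2 fold change -0.51, adjusted p = 0.00607).

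GCLM (ENSG00000023909, chromosome 1, 94350755 to 94375012, minus strand) was the member with the largest rise against control. In the control at 72 h its level was 95.1, 95.7, 85.4 and 87.1 CPM. With Sal it was 139.5, 179, 193 and 126 CPM, with Das 127, 129, 99.0 and 116 CPM, and with S + D 268, 252, 262 and 185 CPM. Each treatment lay wholly above the control, S + D overlapped Sal only through its unnumbered library, and the unnumbered library was the lowest with Sal and with S + D. The log2 fold change was 0.80 (SE 0.14, adjusted p = 0.000113) with Sal, 0.36 (SE 0.14, adjusted p = 0.0595) with Das and 1.41 (SE 0.15, adjusted p = 3.06e-07) with S + D. The order of the levels was S + D, Sal, Das and control. S + D differed from Das (log2 difference 1.04, SE 0.14, adjusted p = 2.47e-05), but no pair of neighbours in this order passed the test, with adjusted p = 0.0145 for S + D against Sal and adjusted p = 0.0193 for Sal against Das. In the numbered libraries alone both pairs did (log2 differences 0.62 and 0.52, adjusted p = 0.00909 and adjusted p = 0.00552).

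At 24 h GCLM passed the test against control with S + D, rising from 112, 104, 99.2 and 91.8 CPM in the control to 129.5, 127, 125 and 124 CPM. The groups did not overlap, and the difference was small next to that at 72 h, with a log2 fold change of 0.33 (SE 0.09, adjusted p = 0.00737). The call was lost in 7 of the 8 fits that left out a library, with adjusted p = 0.0304 without the unnumbered control, and it was kept without control library 1 (adjusted p = 0.00681). It was also lost without the filter on low counts (adjusted p = 0.0329) and with all 32 libraries in the fit (adjusted p = 0.0455). Sal and Das stood at 94.1 ± 11.2 CPM and 105 ± 1.43 CPM, with adjusted p = 0.386 and adjusted p = 0.786. S + D was higher than Sal (log2 difference 0.46, SE 0.09, adjusted p = 0.00168).

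GCLC (ENSG00000001084, chromosome 6, 53362139 to 53481768, minus strand) shares 9.68% of its exon bases with other genes. It rose with Sal and with S + D at 72 h, to overlapping levels. At 72 h it stood at 126, 125, 115 and 132 CPM in the control, 176, 206, 209.8 and 136 CPM with Sal, and 199, 187, 185 and 165 CPM with S + D. With Das it stood at 129.5, 132, 124 and 129.7 CPM, within the control's range except for 1 library. Sal and S + D lay above the control, Sal by a narrow margin in its unnumbered library. The log2 fold change was 0.54 (SE 0.12, adjusted p = 0.00075) with Sal, 0.04 (SE 0.12, adjusted p = 0.836) with Das and 0.56 (SE 0.12, adjusted p = 0.000524) with S + D. S + D did not pass the test against Sal (log2 difference 0.02, adjusted p = 0.944), and it differed from Das by 0.52 (SE 0.12, adjusted p = 0.00184). At 24 h GCLC rose with S + D, from 135, 129, 129 and 127 CPM to 175, 172, 166 and 191 CPM. That log2 fold change was 0.46 (SE 0.08, adjusted p = 0.00028), and S + D was also above Sal by 0.57 (SE 0.08, adjusted p = 0.000124). With Das at 24 h the log2 fold change was 0.14 (adjusted p = 0.248), and in the numbered libraries, which lay wholly above the numbered controls, it was 0.17 (adjusted p = 0.00389). Across all 32 libraries GCLM and GCLC had a Pearson r of 0.83 on log2 CPM, the highest among the 9 genes, over libraries that share treatments and the split into numbered and unnumbered.

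NQO1 (ENSG00000181019, chromosome 16, 69740899 to 69760571, minus strand, with 19.4% of its exon bases shared with a non-coding gene on the other strand) was lower with Sal at 72 h and higher with Das at 24 h. At 72 h it stood at 241, 253, 239 and 326 CPM in the control, 103.5, 111, 116 and 171 CPM with Sal, 325, 371, 406 and 463 CPM with Das, and 152, 109.6, 110.1 and 149 CPM with S + D. All libraries with Sal and with S + D lay below all controls, and Das overlapped the control only because the unnumbered control was high. The log2 fold change was -1.09 (SE 0.17, adjusted p = 3.27e-05) with Sal, 0.55 (SE 0.17, adjusted p = 0.0202) with Das and -1.03 (SE 0.17, adjusted p = 5.61e-05) with S + D. In the numbered libraries alone Das passed the test with a log2 fold change of 0.57 (adjusted p = 0.00408). S + D was below Das by a log2 difference of -1.58 (SE 0.18, adjusted p = 3.15e-06) and Sal was below Das by -1.64 (SE 0.18, adjusted p = 2.15e-06), while S + D and Sal did not differ by the test (0.06, adjusted p = 0.876).

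At 24 h NQO1 rose with Das, from 331, 329, 322 and 383 CPM in the control to 460.3, 448, 444 and 653 CPM. The groups did not overlap, and the log2 fold change was 0.56 (SE 0.12, adjusted p = 0.00206). This call was lost with all 32 libraries in the fit (0.54, adjusted p = 0.0107) and with only the 2 groups in it (0.57, adjusted p = 0.0112). Sal stood at 307 ± 14.0 CPM (adjusted p = 0.355) and was below Das by -0.74 (SE 0.12, adjusted p = 0.000439). With S + D the levels were 405, 426, 416 and 343 CPM. The 3 numbered libraries lay above all controls and the unnumbered one lay below its own control. With all 4 the log2 fold change was 0.24 (SE 0.12, adjusted p = 0.101), and with the numbered libraries 0.34 (adjusted p = 7.86e-07).

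HMOX1 (ENSG00000100292, chromosome 22, 35776354 to 35790207, plus strand) gave the largest departure of the 9 genes from a sum of the 2 drugs. At 72 h it stood at 19.6, 21.7, 22.2 and 28.9 CPM in the control and fell to 9.39, 9.06, 9.98 and 15.2 CPM with Sal. With Das it stood at 14.8, 14.4, 19.1 and 30.6 CPM, and with S + D at 41.1, 34.7, 36.6 and 18.4 CPM. Sal lay below the control in all 4 libraries, and the 3 numbered libraries with S + D were above every other library of that time. The unnumbered library with S + D was below its own control. The log2 fold change was -1.09 (SE 0.26, adjusted p = 0.00157) with Sal, -0.24 (SE 0.26, adjusted p = 0.509) with Das and 0.50 (SE 0.26, adjusted p = 0.101) with S + D. In the numbered libraries alone S + D passed the test against control, with a log2 fold change of 0.81 (adjusted p = 6.46e-05).

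S + D exceeded Sal for HMOX1 at 72 h by a log2 difference of 1.58 (SE 0.27, adjusted p = 0.00129), or 3.00-fold, and each library with S + D was above each with Sal. S + D did not pass the test against Das with all 4 libraries (0.73, SE 0.26, adjusted p = 0.0283) and did with the numbered ones (1.22, adjusted p = 8.98e-06). The interaction of Sal and Das, the log2 distance between S + D and the sum of the single responses, was 1.82 (SE 0.37, adjusted p = 0.00333). Taken from the mean CPM, that distance was 2.38 in the numbered libraries and 0.19 in the unnumbered ones, which are 1 library a condition and allow no test. At 24 h the gene stood at 23.8 ± 1.72 CPM in the control, 18.9 ± 1.62 under Sal, 25.0 ± 9.02 under Das and 24.3 ± 7.71 under S + D. None of the 3 passed the test there (adjusted p from 0.309 to 0.866), although all 4 libraries with Sal lay below the controls. The wide spread with Das and with S + D came from the unnumbered libraries, at 38.4 and 35.7 CPM, against 19.7 to 21.9 CPM and 18.8 to 22.3 CPM in the numbered ones. From the latter alone, the log2 fold change was -0.16 with Das and -0.17 with S + D (adjusted p = 0.0872 and adjusted p = 0.0497), against 0.08 and 0.05 in all.

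ME1 (ENSG00000065833, chromosome 6, 83920121 to 84140770, minus strand) was the member with the clearest early response. At 24 h it stood at 72.7, 74.4, 73.2 and 73.1 CPM in the control, 80.8, 89.6, 84.5 and 77.1 CPM with Sal, 103, 109.8, 108 and 117 CPM with Das, and 137, 133, 139 and 124 CPM with S + D. The 4 groups did not overlap, in the order control, Sal, Das, S + D. The log2 fold change was 0.16 (SE 0.07, adjusted p = 0.18) with Sal, 0.58 (SE 0.07, adjusted p = 3.57e-05) with Das and 0.88 (SE 0.07, adjusted p = 1.79e-07) with S + D. Of the neighbours, Das and Sal differed (Sal minus Das -0.43, SE 0.07, adjusted p = 0.00106), while S + D minus Das was 0.30 (adjusted p = 0.012). In the numbered libraries that difference passed the test (0.33, adjusted p = 5.02e-05), as did Sal against control (0.20, adjusted p = 0.00574).

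At 72 h ME1 stood at 71.5, 77.4, 67.8 and 69.5 CPM in the control and at 103, 101, 97.1 and 91.9 CPM with Das. These groups did not overlap, and the log2 fold change of 0.45 (SE 0.12) missed the threshold with adjusted p = 0.0104. With Sal it stood at 82.3 ± 15.4 CPM and with S + D at 84.6 ± 8.73 CPM, both overlapping the control (adjusted p = 0.185 and adjusted p = 0.101). In the numbered libraries alone Das passed the test (0.46, adjusted p = 0.00711).

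TXNRD1 (ENSG00000198431, chromosome 12, 104609557 to 104744085, plus strand), the cytosolic thioredoxin reductase, stayed close to the control. At 72 h the control stood at 285, 283, 266 and 413 CPM and S + D at 299.7, 324, 328 and 393 CPM. The unnumbered library was the highest of its group in all 8 conditions, and it set most of the spread. The 6 log2 fold changes against control lay between -0.22 (SE 0.12) with Sal at 24 h and 0.16 (SE 0.20) with Sal at 72 h, with adjusted p from 0.263 to 0.881. With Das at 24 h it was -0.03, and 0.067 in the numbered libraries (adjusted p = 0.185). SRXN1 (ENSG00000271303, chromosome 20, 627259 to 633844, minus strand), which repairs oxidized peroxiredoxins, was near the floor of the assay, with 5 to 59 counts per library. It stood between 0.175 and 0.713 CPM in the numbered libraries and between 0.502 and 1.39 CPM in the unnumbered ones. Its log2 fold changes lay between -1.01 (SE 0.50) and -0.06 (SE 0.65), none past the test (adjusted p from 0.203 to 0.946). With Sal at 72 h the value was -0.06 in all libraries and 0.18 in the numbered ones (adjusted p = 0.74). In the annotation 90.7% of its exon bases are shared with a readthrough gene on the same strand, listed at 0 in all 32 libraries, and whether reads were left out as ambiguous was not tested, so its level is uncertain.

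**Figure D2:**
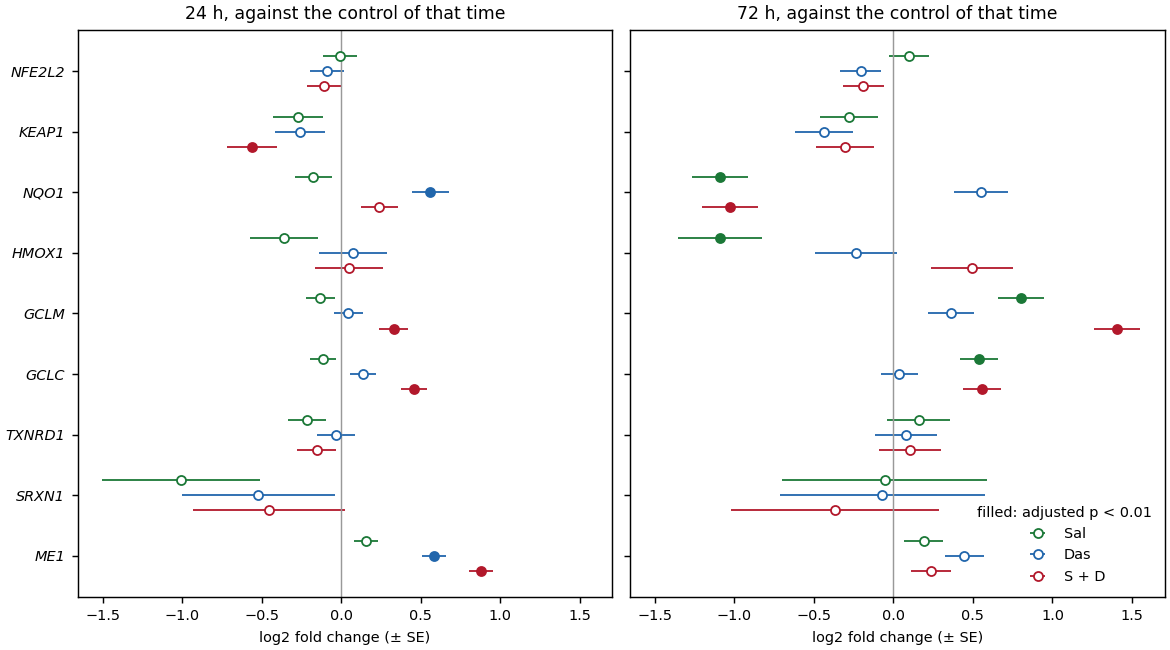
Log2 fold change against the control of the same time (x axis, with SE) for the 9 genes (y axis) with Sal, Das and S + D at 24 h and 72 h, filled where the adjusted p was under 0.01. GCLM and GCLC lie to the right and NQO1 to the left with Sal and S + D at 72 h, while HMOX1 lies on opposite sides of 0 with Sal (-1.09) and S + D (0.50).

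The counts of members were set against the share of all genes that passed the same test. With Sal at 24 h, 0 of 9 passed in edgeR, against 4.55% of all genes that rose and 2.23% that fell. DESeq2 called 0 members there, against 13.2% of all genes in either direction, and 0 had an unadjusted p under 0.05. No share of all genes is given for that unadjusted cutoff, here or below. With Das at 24 h, 2 rose (NQO1 and ME1) and 0 fell, against 6.99% and 6.88% of all genes. With S + D at 24 h, 3 rose (ME1, GCLC, GCLM) and 1 fell (KEAP1), against 17.1% and 16.5%. At 72 h, 2 rose (GCLM, GCLC) and 2 fell (NQO1, HMOX1) with Sal, against 26.3% and 26.8%. With Das at 72 h, 0 passed in edgeR, against 10.5% and 9.36%. DESeq2 called 1 there, against 25.6% of all genes in either direction, and 4 had an unadjusted p under 0.05. With S + D at 72 h, 2 rose (GCLM, GCLC) and 1 fell (NQO1), against 27.0% and 27.9%. With Sal and with S + D at 72 h, the 4 and 3 of 9 members called were no larger a share than that of all genes, and the difference was not tested. The members' median log2 fold change was 0.10 for both, beside 0.00 and 0.01 over all genes. These comparisons share their control libraries. No member passed both the adjusted p and an absolute log2 fold change above 1.5 against control.

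From the 12 numbered libraries of a time point alone, the members that passed were at 24 h 2 of 9 for Sal, 4 for Das and 5 for S + D, against 23.5%, 39.3% and 58.1% of all genes in either direction. At 72 h they were 4, 3 and 4, against 57.3%, 22.6% and 57.8%.

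Between the drugs, S + D against Sal at 24 h had 3 members higher (ME1, GCLC, GCLM) and 0 lower, against 5.83% and 7.06% of all genes. S + D against Das at 24 h had 0 in edgeR, against 4.03% and 4.46%. DESeq2 called 2 there, against 15.1% of all genes in either direction, and 4 had an unadjusted p under 0.05. Sal against Das at 24 h had 0 higher and 2 lower (NQO1, ME1), against 3.70% and 4.29%. At 72 h, S + D against Sal had 1 higher (HMOX1) and 0 lower, against 1.42% and 1.59%. S + D against Das had 2 higher (GCLM, GCLC) and 1 lower (NQO1), against 14.3% and 17.7%, and Sal against Das had 1 higher (GCLC) and 1 lower (NQO1), against 15.2% and 16.9%. The GCLC call of Sal against Das (0.50, SE 0.12, adjusted p = 0.00252) was lost without Sal library 2 (adjusted p = 0.0125) or Sal library 3 (adjusted p = 0.0123).

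More members differed between the treatments in the numbered libraries alone. At 24 h 5 members passed for S + D against Sal, with KEAP1 (-0.35, adjusted p = 0.00115) and NQO1 (0.47, adjusted p = 2.92e-08) added, against 41.4% of all genes. For S + D against Das 5 passed, against 32.9%, which were KEAP1 (-0.31, adjusted p = 0.00394), GCLM (0.27, adjusted p = 0.00119), GCLC (0.21, adjusted p = 0.00119), TXNRD1 (-0.14, adjusted p = 0.00874) and ME1. For Sal against Das 4 passed, against 29.0%, with GCLC (-0.22, adjusted p = 0.00081) and TXNRD1 (-0.20, adjusted p = 0.000867) added. At 72 h, Sal against Das had 4, with HMOX1 (-0.77, adjusted p = 0.000356) and GCLM added, against 35.1%.

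For the interaction of Sal and Das at 24 h, 0 members passed in edgeR, against 0% of all genes above the sum and 0.0306% below. DESeq2 called 0 of the 8 it tested, against 1.09% of all genes in either direction, and 2 had an unadjusted p under 0.05. GCLM lay above the sum by 0.42 (adjusted p = 0.284), which passed in the numbered libraries (0.36, adjusted p = 0.0089, against 5.09% of all genes), and GCLC by 0.43 (adjusted p = 0.173). At 72 h, 1 member (HMOX1) lay above the sum and 0 below, against 3.43% and 4.09% of all genes. NQO1 lay below the sum by -0.49 (adjusted p = 0.17), KEAP1 above it by 0.41 (adjusted p = 0.276) and GCLM above it by 0.24 (adjusted p = 0.432), none past the test.

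**Figure D3:**
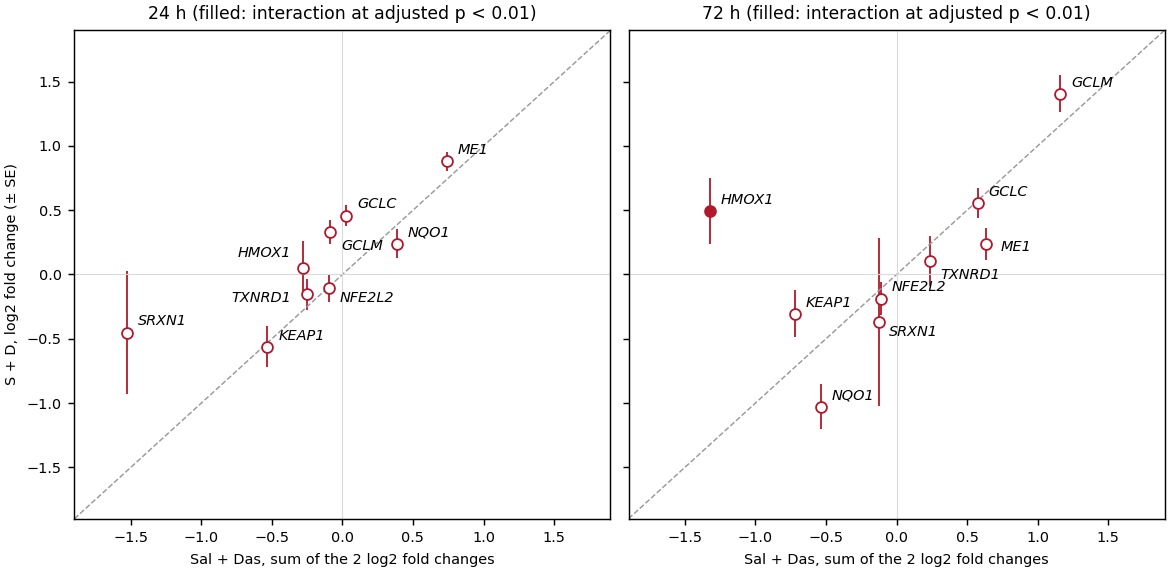
Log2 fold change with S + D (y axis, with SE) against the sum of the log2 fold changes with Sal and Das alone (x axis) for the 9 genes at 24 h and 72 h, with the dashed line where they are equal. HMOX1 at 72 h is the filled point, 1.82 above the line, and no other gene passed the test of the distance from it.

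The response to Sal and to S + D differed between the times in several members. In the control, 0 of 9 members differed between 72 and 24 h in edgeR, against 2.00% of all genes higher and 0.760% lower at 72 h. DESeq2 called 0, against 5.3% of all genes in either direction, and 2 had an unadjusted p under 0.05. KEAP1 came nearest, with a log2 difference of -0.57 (adjusted p = 0.0497), and passed in the numbered libraries (-0.61, adjusted p = 0.000406), as did NQO1 (-0.43, adjusted p = 0.00313), against 11.0% of all genes. The response to Sal, 72 h minus 24 h, was higher in 2 members and lower in 1, against 8.21% and 13.7% of all genes. It was higher by 0.94 (SE 0.17, adjusted p = 0.000109) for GCLM and 0.66 (SE 0.14, adjusted p = 0.000566) for GCLC, and lower for NQO1 by -0.91 (SE 0.22, adjusted p = 0.00168). The response to Das did not change by the test in any member (0 in edgeR), against 0.0522% and 0.174% of all genes. DESeq2 called 0, against 0.989% of all genes in either direction, and 0 had an unadjusted p under 0.05. The response to S + D was higher in 1 member and lower in 2, against 6.15% and 10.1%. GCLM gained 1.13 (SE 0.17, adjusted p = 2.05e-05), NQO1 lost (-1.22, SE 0.22, adjusted p = 0.00013) and ME1 lost (-0.59, SE 0.14, adjusted p = 0.0022). For GCLC, which passed at both times with S + D, the change of response was 0.15 (adjusted p = 0.451). HMOX1 passed as well in the numbered libraries, lower for Sal (-0.91, adjusted p = 2.31e-05) and higher for S + D (1.01, adjusted p = 7.23e-06), against 39.3% and 31.5% of all genes called.

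The direction in the unnumbered library was compared with that of the numbered ones for each treatment. Of 9 members, the ratio to control had opposite signs at 24 h in 1 for Sal, 3 for Das and 2 for S + D, and at 72 h in 2 for each treatment. The share of all genes with opposite signs was not counted, so these counts have no background. Some of the ratios lay near 0, such as NFE2L2 with Sal at 24 h (-0.031 in the unnumbered library and 0.025 in the numbered ones). For HMOX1 with S + D at 72 h, the log2 ratio was 0.82 between the means of the numbered libraries and -0.65 between the unnumbered ones. At 24 h, HMOX1 had -0.17 and 0.56 with Das in the same order. With 1 unnumbered library a condition, these differences were not tested. For GCLM, GCLC and NQO1 at 72 h with S + D, the ratio had the same sign in the unnumbered library.

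**Figure D4:**
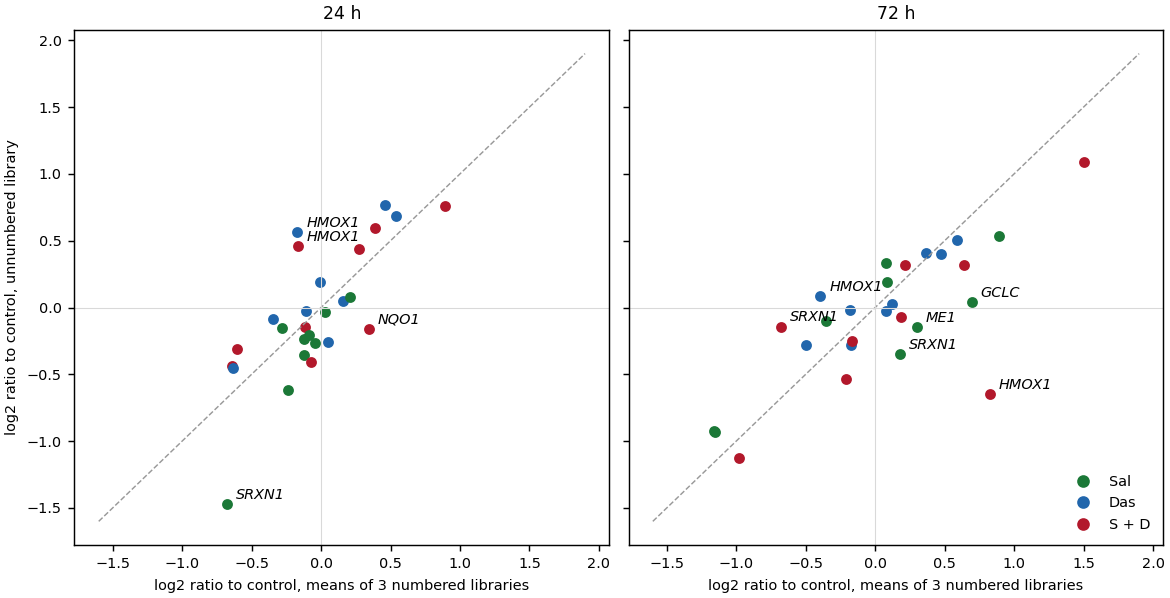
Log2 ratio to control in the unnumbered library (y axis) against that between means of the 3 numbered libraries (x axis) for the 9 genes with Sal, Das and S + D at 24 h and 72 h, with the dashed line where they are equal. HMOX1 with S + D at 72 h lies at 0.82 and -0.65, in the quadrant of opposite signs.

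Other genes of the pathway and of antioxidant defence were counted in 7 lists. At 72 h, 26.3% of all genes rose and 26.8% fell under Sal, 10.5% and 9.36% under Das, and 27.0% and 27.9% under S + D, and at 24 h the shares were 4.55% and 2.23%, 6.99% and 6.88%, and 17.1% and 16.5%. The counts of the lists stand beside these shares and were not tested against them. Of 14 genes around NRF2 (adaptors, partners and ligases), at 72 h 6 rose and 2 fell under Sal, 2 and 2 under Das, and 6 and 3 under S + D. At 24 h the counts were 1 and 1, 1 and 1, and 5 and 2. SQSTM1, the autophagy receptor that binds KEAP1, had log2 fold changes of 1.52 (SE 0.19), 0.77 (SE 0.18) and 1.75 (SE 0.19) with Sal, Das and S + D at 72 h (adjusted p = 2.04e-06, 0.0041 and 4.5e-07). SYVN1, a ubiquitin ligase of the endoplasmic reticulum, rose by 1.66, 0.83 and 1.55, and NFE2L3, a relative of NRF2, fell with -1.81, -0.61 and -1.39 at that time.

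Of 33 tested among 34 further NRF2 targets, at 72 h 11 rose and 13 fell under Sal, 8 and 8 under Das, and 13 and 11 under S + D. At 24 h they were 2 and 1, 5 and 2, and 8 and 7. FTL, the light chain of ferritin, rose by 2.86 (SE 0.26), 1.29 (SE 0.24) and 2.90 (SE 0.26) with the 3 treatments (adjusted p = 8.87e-08, 0.000744 and 6.43e-08), with the reserve that it has many near-identical pseudogenes that can share its reads. AKR1C1 and AKR1C2, reductases of ketosteroids and aldehydes with near-identical sequences, fell with Sal (-2.48 and -2.64) and with S + D (-1.92 and -1.80) at 72 h, and with Das had -0.12 and 0.22, not past the test (adjusted p = 0.747 and adjusted p = 0.557). Their direction with Sal and S + D was that of NQO1 and opposite to that of GCLM.

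Of 19 glutathione genes tested among 21, at 72 h 6 rose and 8 fell under Sal, 5 and 3 under Das, and 8 and 8 under S + D. At 24 h the counts were 2 and 1, 6 and 0, and 6 and 6. GSTO1, a glutathione transferase, fell with -2.62, -1.06 and -2.54 at 72 h. CHAC2, which degrades glutathione, had -2.59, -0.99 and -3.08, of which Das did not pass (adjusted p = 0.0216), and MGST2, a microsomal transferase, had -1.49, -0.53 and -1.65, again without Das (adjusted p = 0.0255). Of 14 thioredoxin and peroxiredoxin genes tested among 15, at 72 h 2 rose and 4 fell under Sal, 0 and 1 under Das and 3 and 3 under S + D, and at 24 h 0 and 0, 1 and 0, and 1 and 2. PRDX5 rose with Sal (1.35) and S + D (1.41), PRDX2 fell with all 3 (-0.90, -0.73 and -0.89), and SESN3 fell with Sal (-1.40) and S + D (-2.10). SOD1 and CAT, which remove superoxide and hydrogen peroxide, were the 2 genes called of 3 tested among 4 and fell with Sal (-0.96 and -0.88) and S + D (-0.65 and -0.61) at 72 h, and with Das 0 were called. At 24 h, 2 of the 4 were tested and 1, SOD1, fell with S + D (-0.34, adjusted p = 0.00314).

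Of 12 enzymes of NADPH supply, a list that leaves out ME1 as a member, at 72 h 1 rose and 8 fell under Sal, 1 and 4 under Das, and 1 and 6 under S + D, and at 24 h 1 and 1, 1 and 1, and 2 and 3. The list's median log2 fold change at 72 h was -0.53, -0.24 and -0.32, beside 0.00, 0.02 and 0.01 over all genes. IDH1, the cytosolic isocitrate dehydrogenase, was the gene that rose, by 0.65, 0.76 and 0.85 at 72 h and by 0.28, 0.98 and 1.06 at 24 h, and its early steps with Das and S + D ran beside those of ME1. IDH2, the mitochondrial form, fell with -1.11, -0.92 and -1.24, and MTHFD1, an enzyme of folate metabolism, with -0.76, -0.60 and -0.99. Of 8 haem and ferritin genes, at 72 h 3 rose and 1 fell under Sal, 1 and 1 under Das and 3 and 1 under S + D, and at 24 h 1 and 0, 0 and 1, and 1 and 1. BLVRB, a biliverdin reductase, rose with Sal (1.39) and S + D (1.77), and SLC48A1, a haem carrier, fell with -1.63, -0.97 and -1.75.

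**Figure D5:**
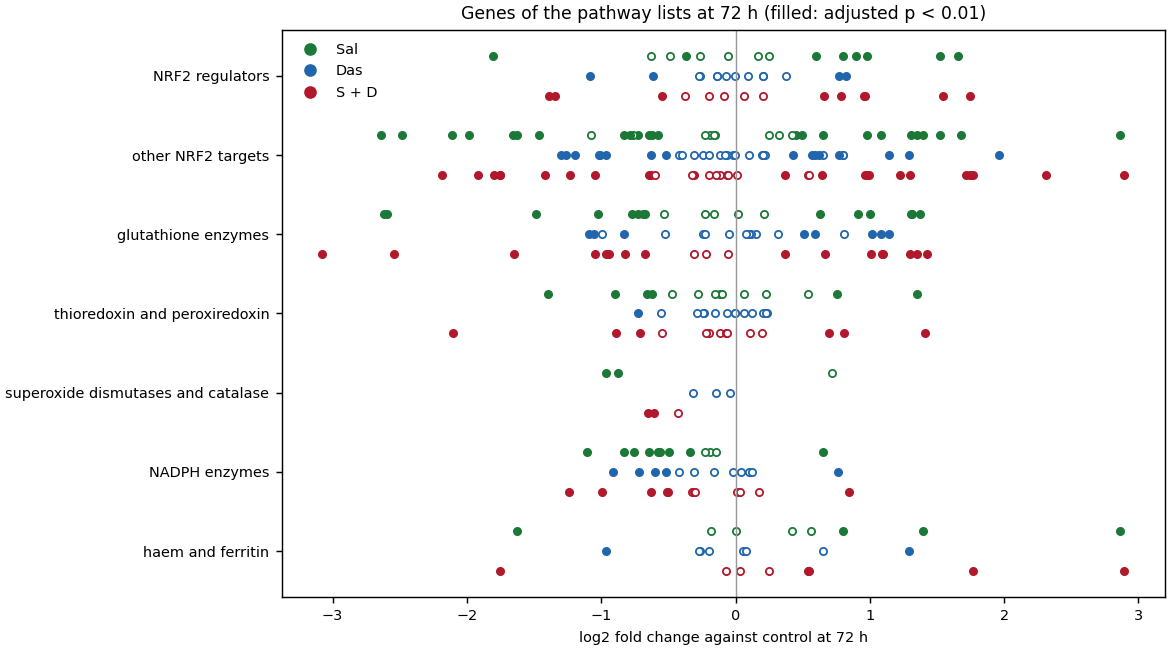
Log2 fold change against control at 72 h (x axis) for each gene of the 7 pathway lists (y axis) with Sal, Das and S + D, filled where the adjusted p was under 0.01. Each list but that of superoxide dismutases and catalase has called genes on both sides of 0 with S + D, and FTL is the point at 2.90.

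The genes whose levels ran most like each member's were taken over the 32 libraries by Pearson's r on log2 CPM, as a description over libraries that share treatments and the split into numbered and unnumbered. NFE2L2 was most like BCAP29 (0.91) and TRIM24 (0.87), KEAP1 like THOC6 (0.97) and TRIM28 (0.96), and NQO1 like MAT2A and TSC22D3 (0.95 each). HMOX1 had DIRAS1 and PLEKHM2 (0.79 each). GCLM had ZNF165 (0.93) and SH3BGR (0.93), GCLC had GTF3C3 (0.85) and DLGAP1-AS1 (0.83), and TXNRD1 had NAXD (0.84) and RPS27A (0.81). ME1 had PTP4A1 (0.91) and a gene listed only by its identifier (0.87), and SRXN1, at its low counts, had SDHC (0.81) and RPS2P46 (0.78). Among the members themselves, NQO1 and GCLM had r = -0.71.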

How the data were processed

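RNA-seq libraries of MDA-MB-468 cells were built with the TruSeq kit, sequenced as single-end reads, aligned to GRCh37 with STAR 2.5.2 and deposited by the authors as raw counts of reads per Ensembl gene, without normalization. The submitters' processing notes also name bcl2fastq 2.19, Cufflinks 2.1.1 and DESeq2. The counting program, its annotation and its use of strand are not given in the sources used here. Columns without a replicate number were placed by their group only. All 32 columns were used. Symbols and GRCh37 coordinates came from GENCODE 44.

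Counts were analysed with edgeR 4.0.16 (limma 3.58.1, R 4.3.3): TMM, filterByExpr (minimum count 10), quasi-likelihood test and Benjamini-Hochberg adjustment over all genes tested (16357 at 24 h, 16682 at 72 h, 17227 for times). The 4 groups of a time, or all 8, shared a fit. A gene was called at an adjusted p under 0.01, which with an absolute log2 fold change above 1.5 is the study's cutoff. The tests are two-sided and measure the spread between replicate libraries. Alternatives were DESeq2 1.42.0, RLE factors, no filter, a replicate block, other sets of libraries and leaving out each library, plus a test of the unnumbered libraries added after seeing the data. Scripts were tested on simulated data.

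The members and lists were chosen with earlier results of these data known. Named are all members, of each list the 3 genes with the largest called change at 72 h and a mean of at least 1 CPM, and for each member the 2 genes of highest r at a mean of at least 10 CPM (log2 CPM with a prior count of 2). GSS and SLC7A11 are named outside this rule. TXNIP, SOD2 and PECAM1 were not analysed here.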

Additional observations from a re-analysis of the deposited data

Results flagged for a closer look

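In 72 groups of 4 libraries (9 genes in 8 conditions), 12 values stood apart by Dixon's test, where chance flags about 1 group in 20. All 12 came from unnumbered libraries and all were the highest of their group. For TXNRD1 they were 477 CPM in the control, 373 with Sal and 359 with S + D at 24 h, and 413 in the control and 521 with Sal at 72 h. For NQO1 they were 383 CPM in the control and 653 with Das at 24 h, and 326 in the control at 72 h. HMOX1 stood at 38.4 CPM with Das at 24 h and 15.2 CPM with Sal at 72 h, KEAP1 at 202 CPM with S + D at 24 h, and SRXN1 at 1.02 CPM with Das at 24 h. Over all genes tested, the deviations of the unnumbered libraries from their group means ran together. The r between unnumbered libraries was 0.613 to 0.691 at 24 h and 0.532 to 0.626 at 72 h. What sets them apart besides a missing replicate number is not given in the sources used here.

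The response differed between times, by a test of the difference, with Sal for GCLM (0.94 on the log2 scale, 72 h minus 24 h), GCLC (0.66) and NQO1 (-0.91), and with S + D for GCLM (1.13), NQO1 (-1.22) and ME1 (-0.59). HMOX1 differed between the response to Sal with and without Das at 72 h, by 1.82.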

How the results depend on the processing

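The 7 calls against control at 72 h (GCLM, GCLC and NQO1 with Sal and with S + D, and HMOX1 with Sal) kept their direction and stayed past the threshold in all 8 alternative fits and in all 8 fits that left out a library, and the HMOX1 interaction did so in 7 and 16. Of the calls against control at 24 h, ME1 with Das and with S + D and GCLC with S + D did so too. NQO1 with Das and GCLM with S + D were each called in 6 of the 8 alternative fits, and KEAP1 with S + D in all 8. In the 8 fits that left out a library, NQO1 was called in all 8, and GCLM and KEAP1 in 1 each. Between treatments, GCLM for S + D against Sal at 24 h was lost with all 32 libraries (adjusted p = 0.0125) and with only the groups compared (adjusted p = 0.0227). The latter fit also lost NQO1 and ME1 for Sal against Das at 24 h (adjusted p = 0.0111 and adjusted p = 0.0262) and GCLC at 72 h (adjusted p = 0.0194).

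The counts of members called are given here with the share of all genes called in brackets. With the numbered libraries only, they were 2 for Sal (23.5%) and 4 for Das (39.3%) against control at 24 h. Between treatments at 24 h they were 5 for S + D against Sal (41.4%), 5 for S + D against Das (32.9%) and 4 for Sal against Das (29.0%). The interaction at 24 h had 1 (5.09%). At 72 h they were 3 for Das against control (22.6%), 2 for S + D against Sal (4.31%) and 4 for Sal against Das (35.1%). Between the controls of the 2 times there were 2 (11.0%). With a term for the unnumbered libraries they were 1 for Sal against control (22.2%), 5 for S + D against Sal (31%) and 4 for S + D against Das (25.8%) at 24 h. At 72 h they were 3 for Das against control (31.6%), 2 for S + D against Sal (8.41%) and 5 for Sal against Das (43.7%). Between the controls there was 1 (9.03%). In the replicate block the unnumbered libraries form a level of their own. With it they were 5 for S + D against Sal (27.6%) and 4 for S + D against Das (22%) at 24 h. At 72 h they were 3 for Das against control (30.6%), 2 for S + D against Sal (7.36%) and 5 for Sal against Das (42.6%). Between the controls there was 1 (8.48%). Among the numbered libraries the numbers did not pair the samples: deviations from the group means had r between -0.105 and 0.118 for the same number at 24 h and between -0.241 and 0.088 at 72 h, with medians of -0.006 and 0.003. The cause of these shifts was not tested.

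An added cutoff of 1.5 on the absolute log2 fold change left 0 for Das and S + D against control, S + D against Sal and Sal against Das at 24 h, 0 for Sal and S + D against control at 72 h, 1 for S + D against Das and Sal against Das at 72 h, and 0 for the change of the Sal and S + D responses with time. An adjusted p under 0.05 gave 3 for S + D against Das at 24 h and 1 between the controls. At 72 h it gave 2 for Das against control, 2 for S + D against Sal and 4 for Sal against Das. The share of all genes that passed the added cutoff or this wider one is not given here. DESeq2 gave 2 for S + D against Das at 24 h (15.1% of all genes). At 72 h it gave 1 for Das against control (25.6%) and 2 for S + D against Sal (6.72%). Without the filter, 1 was called for Das against control (10.8% of all genes) and 2 for S + D against Sal (2.06%) at 72 h. With all 32 libraries in the fit, 1 was called for Das against control at 24 h (12.4% of all genes). At 72 h that fit called 2 for Das against control (24.7%), 2 for S + D against Sal (5.55%) and 4 for Sal against Das (35.9%). With only the groups compared, 1 was called for Das against control (14.7% of all genes) and 0 for Sal against Das (2.59%) at 24 h. At 72 h it was 1 each for Das against control (12.4%) and Sal against Das (21.3%).

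Leaving out each library moved the count between 2 and 3 for S + D against control and 0 and 1 for S + D against Das at 24 h, and between 1 and 2 for S + D against Sal and 1 and 4 for Sal against Das at 72 h. The first fell to 2 without control 2, control 3, the unnumbered control or S + D 1, 2 or 3, and those for S + D against Das at 24 h and S + D against Sal at 72 h rose without the unnumbered S + D library. The last fell to 1 without Sal 2 or Sal 3 and rose to 4 without the unnumbered Sal library. The share of all genes called in the fits that left out a library is not given here. Signs turned only for values that had not passed the test. The values listed below are those against control. Between treatments signs turned as well, as for KEAP1 with S + D against Sal at 72 h (-0.024 in all libraries, 0.148 in the numbered ones). With the numbered libraries only, the log2 fold change was 0.019 for NFE2L2 with Sal, -0.16 for HMOX1 and 0.067 for TXNRD1 with Das and -0.17 for HMOX1 with S + D at 24 h, and 0.18 for SRXN1 with Sal at 72 h, which was 0.0038 with the term. With only the groups compared NFE2L2 had 0.012 with Sal at 24 h. Over the fits that left out a library, the ranges at 24 h were -0.063 to 0.081 for NFE2L2 with Sal, -0.20 to 0.18 for HMOX1 and -0.090 to 0.13 for TXNRD1 with Das, and -0.19 to 0.15 for HMOX1 with S + D. At 72 h they were -0.10 to 0.32 for TXNRD1 and -0.46 to 0.58 for SRXN1 with Sal, -0.0014 to 0.076 for GCLC, -0.039 to 0.24 for TXNRD1 and -0.79 to 0.57 for SRXN1 with Das, and -1.24 to 0.27 for SRXN1 with S + D. RLE factors moved none of the 72 group means by more than 1 SD. At 5 to 59 counts per library, depth limits what SRXN1 can show.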
